A study of Mus musculus with 6 samples.

Results

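The p53 response and senescence genes examined here were Trp53, Mdm2, Cdkn1a, Cdkn2a, Cdkn2b, Bax, Bbc3, Gadd45a, Ccng1 and Gdf15, 10 of the 31130 genes counted in lung tumors of mice with and without interstitial pneumonia (IP). They were taken by their gene symbols, and each symbol matched 1 gene. Tumor tissue came from 3 mice of the lung cancer alone (LC) model and 3 mice in which IP preceded the cancer (IP + LC). All were female wild-type C57BL/6 mice, 6 to 8 weeks old. In both groups, the left lung was injected on day 14 with EGFP-expressing Lewis lung carcinoma (LLC) cells, a cancer line from mouse lung, and the tumor tissue was taken on day 21. The IP + LC group had received bleomycin, a drug that breaks DNA and injures the lung, at 2 mg/kg by the oropharyngeal route on day 0, whereas the LC group had no bleomycin. The tissue was not sorted, so the injected cells, the host's lung and the host's infiltrating cells were measured together, and bleomycin came before the tumor cells were present. The EGFP transcript of the injected cells was not analysed here.

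The transcription factor p53 is held at a low level by Mdm2, which marks it for degradation, and is stabilized when DNA is damaged or the cell is otherwise stressed. It then switches on genes that halt the cell cycle, repair DNA or start apoptosis, and Mdm2 itself is among these genes, which closes a feedback loop. Senescence is a lasting arrest of the cell cycle that is held by p21, p16Ink4a and related inhibitors of cyclin-dependent kinases (CDKs). It comes with loss of lamin B1 and secretion of cytokines, proteases and growth factors. Bleomycin injury of the lung is a common setting in which these genes are studied.

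The p53 protein binds an element of 2 motifs of 10 bases each, known as the p53 consensus element. The promoters of the 10 genes in RefSeq (GRCm38.p6) comprised 15 windows of 300 bases, from 250 bases before to 50 bases after an annotated start of transcription. They were searched for this element without a spacer, with the central C and G of each motif kept. The element reads the same on both strands, so a single search covers them. With at most 1 mismatch the element occurred in the windows of Cdkn1a and Ccng1, against 0.067% of 32851 mouse promoters. With 3 mismatches it occurred in those of Trp53 and Bbc3, against 1.38% of promoters with up to 3. No match with up to 3 mismatches was present in the windows of the other 6 genes, which says only that the letters are not in these windows. The 250 bases before the start are shown for the 3 genes that p53 is well known to activate and whose window held a match (capitals mark the match), and for Gdf15, the gene with the largest difference between the groups among the 9 tested. They lie at chr17:29090729-29090978 on the plus strand for Cdkn1a, chr11:40755287-40755536 on the minus strand for Ccng1, chr7:16309333-16309582 on the plus strand for Bbc3 and chr8:70632457-70632706 on the minus strand for Gdf15.
Cdkn1a: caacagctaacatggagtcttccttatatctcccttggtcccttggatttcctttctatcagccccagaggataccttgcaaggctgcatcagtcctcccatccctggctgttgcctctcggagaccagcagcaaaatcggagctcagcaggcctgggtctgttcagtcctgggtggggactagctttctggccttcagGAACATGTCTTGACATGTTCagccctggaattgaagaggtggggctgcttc
Ccng1: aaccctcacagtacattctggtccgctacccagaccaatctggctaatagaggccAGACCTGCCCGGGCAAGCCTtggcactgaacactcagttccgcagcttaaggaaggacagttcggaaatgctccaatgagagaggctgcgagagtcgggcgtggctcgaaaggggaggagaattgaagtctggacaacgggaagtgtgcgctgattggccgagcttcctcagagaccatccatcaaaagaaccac
Bbc3: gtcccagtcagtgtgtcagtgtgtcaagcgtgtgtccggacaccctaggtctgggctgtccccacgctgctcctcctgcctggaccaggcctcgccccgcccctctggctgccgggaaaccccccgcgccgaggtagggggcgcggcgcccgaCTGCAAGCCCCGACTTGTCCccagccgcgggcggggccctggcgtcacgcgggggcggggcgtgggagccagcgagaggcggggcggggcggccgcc
Gdf15: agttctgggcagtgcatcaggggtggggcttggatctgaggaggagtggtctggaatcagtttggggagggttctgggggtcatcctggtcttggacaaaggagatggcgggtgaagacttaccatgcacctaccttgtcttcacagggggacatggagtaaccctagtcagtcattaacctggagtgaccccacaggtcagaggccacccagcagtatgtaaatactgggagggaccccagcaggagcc
The match began at position -51 from the start of the window shown in Cdkn1a, at -195 in Ccng1 and at -97 in Bbc3, counted from the start of transcription. Cdkn1a and Bbc3 have further annotated starts, and the windows there held no match. The share over mouse promoters counts each window by itself. A match in the sequence is a description and does not show that p53 bound there.

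The libraries held 592733 to 1631066 unique molecular identifiers (UMIs, 1 for each captured transcript), and LC replicate 1 was the shallowest. Values are given as CPM, the UMIs of a gene relative to the scaled total of its library. The spread between tumors was 34.4% for LC and 11% for IP + LC, and 13.7% for LC when replicate 1 was left out. This tumor stood apart from the rest: its expression correlated across genes with the other LC tumors at r = 0.799 to 0.84, while those correlated with each other at r = 0.962. Results are therefore also given without it. The markers of lung tissue were far higher in the LC samples. The 5 airway markers summed to 47031 to 54131 CPM in the LC and 3200 to 6984 CPM in the IP + LC tumors, and the 5 markers of type 2 alveolar cells to 34443 to 42996 against 6034 to 11128 CPM. In bulk tissue, fewer cells of a type cannot be told apart from less RNA per cell, and this holds for each result given here. The p-values measure only the spread between these samples.

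Of the 10 genes, Gdf15 and Gadd45a were higher and Cdkn2b was lower in the IP + LC group at an adjusted p below 0.1, the limit used for differential expression. Another 6 did not pass this limit, among them Trp53 and its target Cdkn1a, and Cdkn2a was too rare to test. Among the 11240 genes that could be tested, 16.8% were called higher and 19.6% lower, so calls were common in this comparison. Higher genes made up 46.1% of the calls, and 58.3% when libraries were scaled by their size alone, under which 5 of the 10 genes were called higher. By level, 5 of the 9 tested genes lay higher in each IP + LC tumor than in any LC tumor and 1 lay lower, against 21.6% and 21.5% of tested genes. The median log2 fold change of the 9 genes was 0.41, beside 0.018 for the tested genes as a whole. With LC replicate 1 left out, Trp53, Cdkn1a, Bax, Gadd45a and Gdf15 were called higher and Cdkn2b lower, while the calls over the tested genes as a whole grew to 27.8% higher and 28.3% lower. Without any other single tumor, 1 of the 10 was called higher, and Cdkn2b lost its call in 2 of these 5 analyses. The calls over the 11240 tested genes were 857 to 1265 higher and 1315 to 1720 lower in the 5. The levels of the 10 genes in each tumor are plotted by group.

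**Figure D1:**
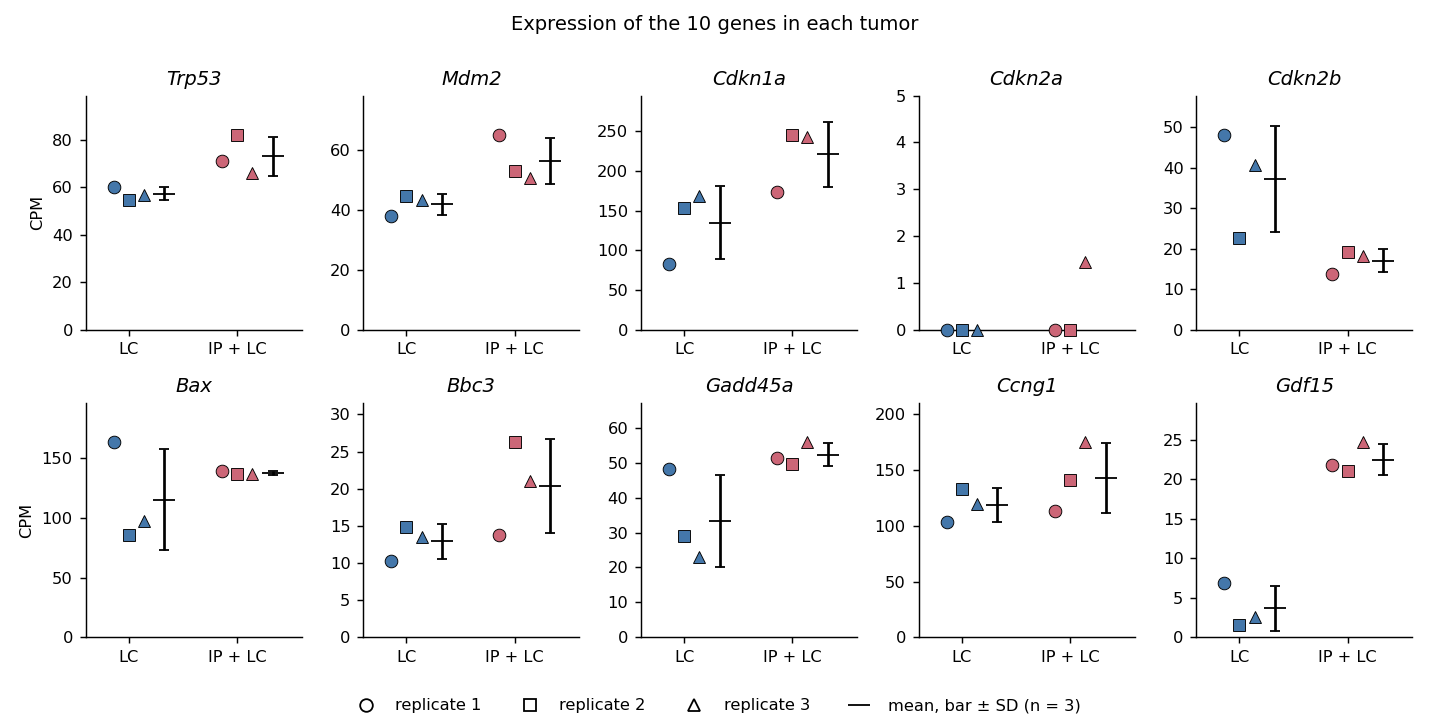
Expression of the 10 genes in CPM (vertical axes, from 0) in the 3 LC tumors (blue) and the 3 IP + LC tumors (red); symbols mark the replicate, and bars the mean ± SD (n = 3), left out for the untested Cdkn2a. The groups are wide apart for Gdf15, lie next to each other for Cdkn1a and Gadd45a, and overlap for Bax, Bbc3 and Ccng1.

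Trp53 itself (chr11:69580359-69591873, plus strand, all positions on GRCm38) was measured at 60.3, 54.8 and 56.8 CPM in LC replicates 1, 2 and 3. In the IP + LC tumors it was at 71.1, 82.3 and 66.1 CPM. Each IP + LC tumor lay above the LC tumors, but the gap between the groups was small. Mean levels were 57.3 ± 2.75 and 73.1 ± 8.31 CPM (SD, n = 3), and the log2 fold change of 0.36 (SE 0.19, 95% interval -0.08 to 0.80) did not pass (adjusted p = 0.201, edgeR quasi-likelihood test). With LC replicate 1 left out it came to 0.38 (adjusted p = 0.0850). Near-identical stretches in other genes cover 8.43% of the transcript sequence of Trp53. The processed pseudogene Trp53-ps, which is among these genes, had 0 to 1 UMI in a library.

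Mdm2 (chr10:117688875-117710758, minus strand), the ubiquitin ligase that p53 induces and that degrades p53, showed a like pattern. It was at 37.9, 44.7 and 43.2 CPM in the LC tumors and at 65.3, 53.1 and 50.8 CPM in the IP + LC tumors. The groups did not overlap, and IP + LC replicate 1 was the highest. The means were 41.9 ± 3.57 and 56.4 ± 7.76 CPM, with a log2 fold change of 0.41 (SE 0.20, 95% interval -0.05 to 0.87, adjusted p = 0.167), which was not significant.

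Cdkn1a (chr17:29090976-29100727, plus strand) encodes p21, the CDK inhibitor through which p53 arrests the cell cycle. Its levels were 82.7, 153 and 169 CPM in the LC tumors and 174, 246 and 243 CPM in the IP + LC tumors. The lowest IP + LC tumor was just above the highest LC tumor, and LC replicate 1 was well below the others. Mean levels were 135 ± 45.8 and 221 ± 40.7 CPM, a log2 fold change of 0.70 (SE 0.29, 95% interval 0.05 to 1.34). The adjusted p of 0.10048 fell just outside the limit of 0.1, and the gene was called in 5 of 13 alternative analyses. Without LC replicate 1 the difference was smaller, at 0.44 on the log2 scale, with an adjusted p of 0.0371. An opposite-strand gene overlaps 7.68% of the exonic sequence of Cdkn1a, and whether counting used the strand is not given in the sources used here. Stretches shared with other genes cover 7.41% of its transcripts.

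Cdkn2a and Cdkn2b lie next to each other on chromosome 4 and encode inhibitors of CDK4 and CDK6. Cdkn2a (chr4:89274471-89294653, minus strand), which encodes p16Ink4a and, from another reading frame, the Mdm2 inhibitor p19Arf, had 0 UMIs in the 3 LC tumors and in IP + LC replicates 1 and 2. In IP + LC replicate 3 it had 2 UMIs. A count of 0 allows up to 3 UMIs, which is 1.75 to 5.17 CPM over the 6 libraries, so lower levels were not detectable at this depth. Because the products share their last exons, a count at the 3′ end cannot tell them apart.

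Cdkn2b (chr4:89306299-89311039, minus strand) encodes p15Ink4b, an inhibitor that transforming growth factor β induces. It was lower in the IP + LC group. Its levels were 48.2, 22.7 and 40.7 CPM in the LC tumors and 13.8, 19.3 and 18.2 CPM in the IP + LC tumors. Each IP + LC tumor lay below the LC tumors, with LC replicate 2 closest to them. The means were 37.2 ± 13.1 and 17.1 ± 2.90 CPM, a log2 fold change of -1.06 (SE 0.32, 95% interval -1.78 to -0.35, adjusted p = 0.0360), that is 2.09-fold lower. The counts behind it were 28, 29 and 48 UMIs against 19, 33 and 25 UMIs. The call was lost without LC replicate 3 (adjusted p = 0.112) and without IP + LC replicate 1 (adjusted p = 0.128). The markers of alveolar, airway, endothelial and muscle cells fell in the same direction, and their part in this result was not tested.

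Bax (chr7:45461697-45466898, minus strand), which forms pores in the outer membrane of mitochondria during apoptosis, was nearly constant in the IP + LC group. The levels were 139, 137 and 137 CPM there and 164, 85.4 and 97.5 CPM in the LC tumors. LC replicate 1 was the highest of the 6 tumors, so the groups overlapped. The means of 116 ± 42.1 and 138 ± 1.41 CPM gave a log2 fold change of 0.28 (SE 0.26, 95% interval -0.31 to 0.86, adjusted p = 0.462). Without LC replicate 1 it was 0.57, with an adjusted p of 0.00439. It was 0.093 without LC replicate 2 (adjusted p = 0.8504) and 0.16 without LC replicate 3 (adjusted p = 0.727), so the size of the difference depended on which LC tumors were included. A gene on the same strand overlaps 12.2% of its exonic sequence, and 19.9% of its transcript sequence is shared with another gene.

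Bbc3 (chr7:16308393-16318205, plus strand) encodes Puma, which frees Bax from its inhibitors. It was measured at 10.3, 14.9 and 13.6 CPM in the LC tumors and at 13.8, 26.3 and 21.1 CPM in the IP + LC tumors. IP + LC replicate 1 lay within the LC range and the other IP + LC tumors above it. The means were 12.9 ± 2.34 and 20.4 ± 6.27 CPM, and the log2 fold change of 0.62 (SE 0.33, 95% interval -0.12 to 1.36, adjusted p = 0.193) passed in 0 of 13 alternatives. With 6 to 45 UMIs in a tumor, the counting error of this gene is large.

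Gadd45a (chr6:67035096-67037457, minus strand), a growth arrest protein induced by DNA damage, was higher in the IP + LC group. Its levels were 48.2, 29.0 and 22.9 CPM in the LC tumors and 51.5, 49.6 and 55.9 CPM in the IP + LC tumors. The IP + LC tumors were close together and above the LC tumors, with LC replicate 1 just below them. Mean levels were 33.4 ± 13.2 and 52.3 ± 3.24 CPM, a log2 fold change of 0.72 (SE 0.27, 95% interval 0.10 to 1.33, adjusted p = 0.0811). The call held in 6 of 13 alternatives. It was lost in DESeq2 (adjusted p = 0.152), with the replicate number as a block (0.121) and when LC replicate 2 (0.249), LC replicate 3 (0.244) or IP + LC replicate 1 (0.191), 2 (0.192) or 3 (0.212) was left out. With LC replicate 1 left out it was 0.98 (adjusted p = 0.00122). The antisense gene E230016M11Rik, which overlaps 19.1% of the exonic sequence, had 0 to 5 UMIs in a library. Near-identical sequence of another gene covers 25.1% of the transcript sequence of Gadd45a.

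Ccng1 (chr11:40748552-40755311, minus strand) encodes cyclin G1, a p53 target that acts in the Mdm2 feedback. Levels were 103, 133 and 120 CPM in the LC and 113, 141 and 175 CPM in the IP + LC tumors. The groups overlapped, with IP + LC replicate 1 below LC replicates 2 and 3. The means of 119 ± 14.95 and 143 ± 31.0 CPM differed by a log2 fold change of 0.26 (SE 0.23, 95% interval -0.25 to 0.77, adjusted p = 0.421), which was not significant. With 1 tumor left out, this value ranged from 0.092 (without IP + LC replicate 3) to 0.41 (without IP + LC replicate 1), with 0.16 in the absence of LC replicate 1, and it was not called in any of these analyses.

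Gdf15 (chr8:70629393-70632456, minus strand) encodes a secreted cytokine of the transforming growth factor β family that is induced by p53 and by other stress pathways. It differed more than the other 8 tested genes. In the LC tumors it had 4, 2 and 3 UMIs, or 6.89, 1.57 and 2.54 CPM. In the IP + LC tumors it had 30, 36 and 34 UMIs, or 21.8, 21.01 and 24.7 CPM. The groups were far apart, and the IP + LC tumors were close to each other. The means were 3.67 ± 2.83 and 22.5 ± 1.94 CPM, with a log2 fold change of 2.85 (SE 0.44, 95% interval 1.86 to 3.84, adjusted p = 0.00258). The ratio of the summed counts was 7.55 (95% interval 3.82 to 17.0, counting error only). By the size of its log2 fold change Gdf15 ranked 135 of 11240 tested genes, and it was called in 13 of 13 alternatives. Its LC counts were too low for the filter, which it passed through the IP + LC group alone, so a gene like this had to differ to be tested. Like Gdf15, 5 other genes named here, Tnfrsf10b, Brca1, Chek1, Cxcl1 and Cxcl2, reached the cut of the filter (7.41 CPM) in 0 LC libraries and in each IP + LC library. Ccne1, Trib3, Il6 and Pmaip1 reached it in 1 LC library and Atm in 2, so these also passed through the IP + LC group. In the other direction, Cdkn1c, Bmf, Bik and Igfbp3 passed through the LC group. The counts and medians of the lists below include such genes, as do the shares over all tested genes.

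**Figure D2:**
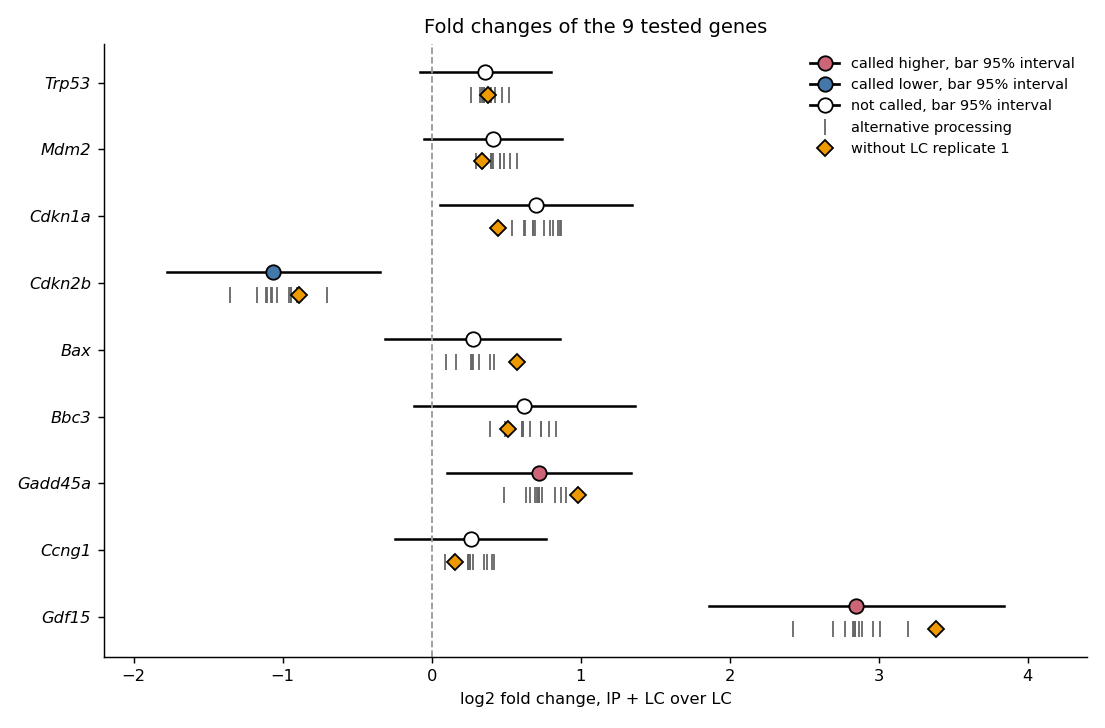
Log2 fold change of the IP + LC over the LC group (horizontal axis) for the 9 tested genes, with the 95% interval as a bar and filled circles for called genes; ticks give alternative analyses, and diamonds the analysis without LC replicate 1. Gdf15 lies apart at 2.85 and Cdkn2b is the only 1 of the 9 below 0, while the intervals of Trp53, Mdm2, Bax, Bbc3 and Ccng1 include 0.

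Of 30 other targets of p53, 26 were tested, and 3 (11.5%) were called higher and 9 (34.6%) lower, beside 16.8% and 19.6% of the tested genes as a whole. The other 14 were not called. Over the 26 tested genes, the median log2 fold change was -0.28. Tnfrsf10b, a death receptor, was higher at 29.2 ± 2.37 against 4.35 ± 3.77 CPM (log2 fold change 2.48, SE 0.45, adjusted p = 0.00512). Sesn2, which restrains growth under stress, was higher by 1.61 (adjusted p = 0.0121), and Zmat3, a zinc finger RNA-binding protein, by 0.77 (adjusted p = 0.0804). The 3 largest decreases were those of Dcxr at -1.79, Perp at -1.69 and Ephx1 at -1.66, with adjusted p of 0.00122, 0.00386 and 0.00137. Dcxr and Ephx1 are metabolic enzymes and Perp is a protein of epithelial junctions.

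Further genes of this list were fixed for description whatever their result. Sesn1 fell by 1.195 on the log2 scale (adjusted p = 0.00713) while its relative Sesn2 was higher. Ppm1d, the phosphatase that switches p53 off, was at 21.9 ± 1.97 CPM in the LC and 11.7 ± 2.43 CPM in the IP + LC tumors (log2 fold change -0.88, adjusted p = 0.0440). Trp53inp1, which helps p53 to start apoptosis, fell by 1.14 (adjusted p = 0.0276), and Fas, another death receptor, fell by 0.93 (adjusted p = 0.0296). Phlda3, an inhibitor of the kinase Akt, and Pmaip1, which encodes Noxa, had log2 fold changes of -0.18 and -0.19 and were not called. The nuclease gene Aen was too rare to test, at 6.42 ± 3.39 and 6.69 ± 1.47 CPM.

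Genes that sense DNA damage or regulate p53 showed 8 higher (36.4%) and 1 lower (4.55%) among 22 tested of 26 listed. The background was 16.8% and 19.6%, and the list median was 0.37. These shares pool sensors of damage with regulators of the p53 protein and do not describe either part alone. Of the genes named next, Mdm4 and Trp53bp2 were listed as regulators and the others as sensors. Brca1, which acts in repair by recombination, was at 3.06 ± 0.616 and 17.98 ± 4.08 CPM (log2 fold change 2.55, SE 0.40, adjusted p = 0.00269). Chek1, the checkpoint kinase of S phase, was higher by 1.57 (adjusted p = 0.0142) and Mre11a, a nuclease at DNA breaks, by 1.45 (adjusted p = 0.00651). Atm, the kinase that signals DNA breaks to p53, was higher by 1.16 (adjusted p = 0.0632). Chek2, which Atm activates, was not called at -0.23, and neither was Mdm4, the partner of Mdm2, at 0.067. Trp53bp2, a cofactor of p53 in apoptosis, fell by 0.94 (adjusted p = 0.0261). The number called higher was 4 without LC replicate 2 or any one of the IP + LC tumors, where 857 to 1213 of 11240 tested genes were called higher, beside 1885 with all tumors. Without LC replicate 1, 4 were called lower, as were 28.3% of tested genes.

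The genes that p21 represses through the DREAM complex are genes of DNA replication and mitosis. Of 20 listed, 19 were tested, 15 (78.9%) were called higher, 0 lower and 4 not called, against 16.8% and 19.6% of tested genes, and the median log2 fold change was 1.88. In 6 of the 19 the groups overlapped, beside 6400 of the 11240 tested genes. The 3 largest were Cenpe at 3.38 (SE 0.22, adjusted p = 0.000354), Top2a at 2.96 (adjusted p = 0.00160) and the proliferation marker Mki67 at 2.63 (adjusted p = 0.000821). Mki67 stood at 20.8 ± 3.07 CPM in the LC and 127 ± 27.7 CPM in the IP + LC tumors. The summed level of the list was 1209 CPM in LC replicate 1, 249.9 and 239 CPM in the other LC tumors and 1775 to 2097 CPM in the IP + LC tumors. The count of genes called higher depended on single tumors, at 19 without LC replicate 1 (where 27.8% of tested genes were called higher). It was 7 without LC replicate 2, LC replicate 3 or IP + LC replicate 2, and 8 when IP + LC replicate 1 or 3 was left out. The calls over all 11240 tested genes fell too when a tumor other than LC replicate 1 was left out, to 857 to 1265 higher, beside 1885 with all tumors.

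Among the CDK inhibitors and their partners, 14 of 15 were tested, 5 (35.7%) were higher and 2 (14.3%) lower, with a median of 0.56. The background was 16.8% and 19.6%, so the share called lower over the whole list was near it. The list pools inhibitors with their partners, and the 2 genes called lower were inhibitors while the 5 called higher were partners. The cyclin genes Ccnd1 and Ccne1, which drive entry into S phase, were higher by 2.84 (adjusted p = 0.000565) and 2.43 (adjusted p = 0.00787). Ccnd1 was at 39.5 ± 9.26 and 288 ± 30.2 CPM. Cdk6, the kinase that p16Ink4a and p15Ink4b inhibit, was higher by 1.596 (adjusted p = 0.00783), whereas the related Cdk4 was not called at 0.68 (adjusted p = 0.157). Of the other inhibitors, Cdkn1c fell by 2.29 (adjusted p = 0.00920) and Cdkn2c by 0.57 (adjusted p = 0.0995). Without LC replicate 2 or IP + LC replicate 1, 3 were called higher, where 1012 and 1053 of 11240 tested genes were. When any single tumor but LC replicate 1 was left out, 1 was called lower, where 1315 to 1720 tested genes were.

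Of 16 other genes of the BCL2 family, 15 were tested, 3 (20%) were higher, 3 (20%) lower and 9 not called, near the 16.8% and 19.6% of the tested genes as a whole, with a median of 0.38. Bak1, which forms pores like Bax, was higher by 1.15 (adjusted p = 0.0642), Bid, which activates both, by 1.19 (adjusted p = 0.0834) and Bcl2, which inhibits both, by 0.81 (adjusted p = 0.0395). The Bid levels overlapped between the groups. The pro-apoptotic genes Bmf and Bik fell by 1.91 (adjusted p = 0.00766) and 1.36 (adjusted p = 0.0130), and the inhibitor Bcl2l2 by 0.68 (adjusted p = 0.0530). The inhibitors Bcl2l1 and Mcl1 were not called, with log2 fold changes of 0.38 and 0.24. The number called higher was 6 without LC replicate 1, where 27.8% of tested genes were called higher. It was 1 without LC replicate 2 or 3, and 0 without IP + LC replicate 1, 2 or 3, where 857 to 1265 of 11240 tested genes were.

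**Figure D3:**
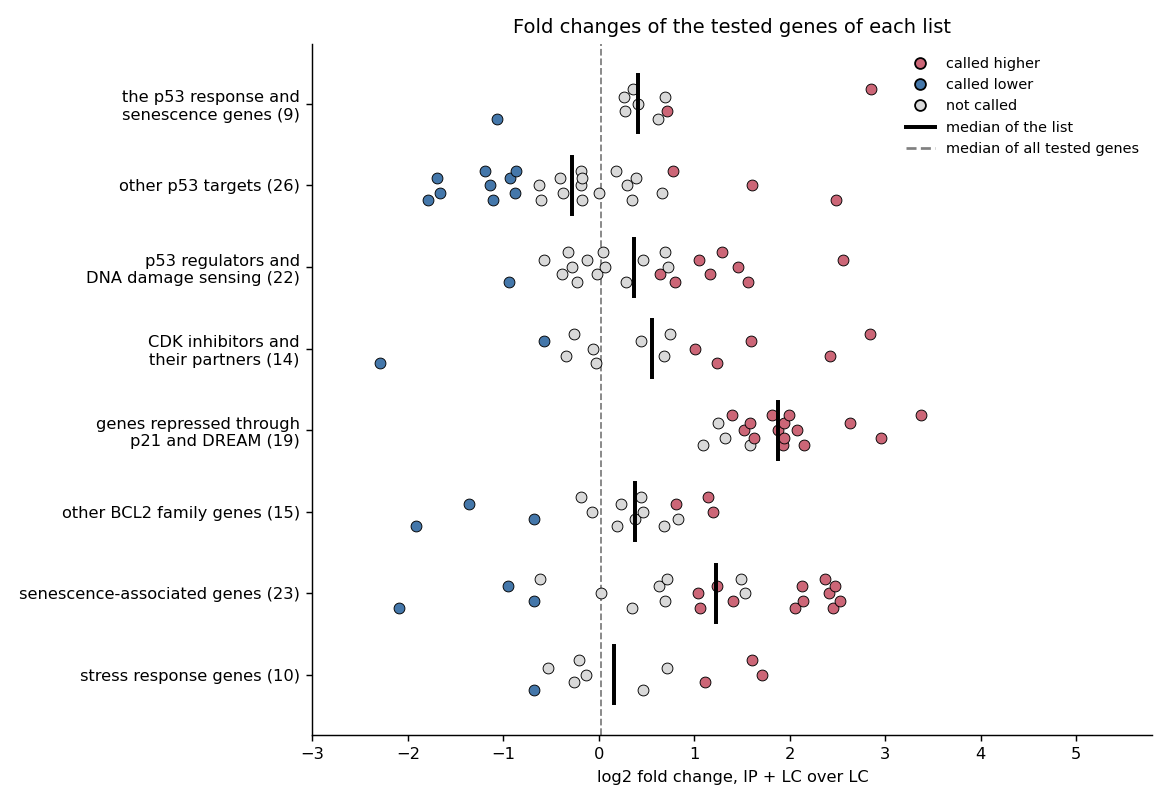
Log2 fold change of the IP + LC over the LC group (horizontal axis) for each tested gene of the lists, with the number tested in brackets; colors mark the calls, black lines the list medians and the dashed line the median of the tested genes as a whole. The genes repressed through p21 and DREAM are centred at 1.88, and the other p53 targets at -0.28 with 9 called lower.

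Of 24 senescence-associated genes, 23 were tested, 12 (52.2%) were higher, 3 (13%) were lower and 8 were not called, beside 16.8% and 19.6% of tested genes, with a median of 1.23. The chemokines Cxcl2 and Cxcl1 were higher by 2.53 (SE 0.49, adjusted p = 0.00651) and 2.45 (SE 0.44, adjusted p = 0.00494). Lmnb1, which encodes lamin B1, was at 15.3 ± 2.45 CPM in the LC and 83.8 ± 4.55 CPM in the IP + LC tumors (log2 fold change 2.47, adjusted p = 0.000716). Senescent cells are known to lose lamin B1, yet Lmnb1 is among the 12 genes counted as higher. The count and the median therefore do not give a direction of senescence. The growth factor binding proteins Igfbp3 and Igfbp7 fell by 2.10 (adjusted p = 0.0142) and 0.96 (adjusted p = 0.00713), and the protease gene Mmp3 by 0.68 (adjusted p = 0.0606).

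Of the senescence-associated genes fixed for description, Glb1 and Il6 were not called. Glb1, which encodes the β-galactosidase of lysosomes, was at 32.9 ± 16.3 and 31.2 ± 2.11 CPM (log2 fold change 0.023, SE 0.31, adjusted p = 0.968). The cytokine gene Il6 was at 5.39 ± 5.79 and 12.2 ± 5.51 CPM, with overlapping groups and a log2 fold change of 1.53 (SE 0.66, adjusted p = 0.115).

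Gdf15 and Gadd45a are also induced by the integrated stress response, which acts without p53. Of 11 listed genes, which are genes of this response and relatives of Gadd45a, 10 were tested, 3 (30%) were higher and 1 (10%) was lower, against 16.8% and 19.6% of tested genes, with a median of 0.16. In so short a list these counts are close to the background. Trib3 and Asns, targets of the factor Atf4, were higher by 1.71 (adjusted p = 0.0654) and 1.11 (adjusted p = 0.0667), but their levels overlapped between the groups. Sesn2 stands in this list too. Gadd45b, the relative of Gadd45a, fell by 0.68 (adjusted p = 0.0782). The transcription factor genes Atf3 and Ddit3 were not called, at 0.46 and -0.26. Without LC replicate 2, LC replicate 3, IP + LC replicate 1 or IP + LC replicate 2, 1 was called higher and 0 lower. In these analyses 857 to 1265 of 11240 tested genes were called higher and 1315 to 1720 lower.

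The summed level of the 10 genes was 539 to 565.2 CPM in the LC and 663.4 to 792.9 CPM in the IP + LC tumors, without overlap. The genes with the highest levels, Cdkn1a, Bax and Ccng1, weigh most in this sum, and none of them was called. The 30 other p53 targets summed to 1446 to 1619 CPM in the LC and 997 to 1138 CPM in the IP + LC tumors. The cell type markers differed as well. All 5 airway, all 5 type 2 alveolar, all 5 endothelial and all 5 muscle markers and 4 of 5 type 1 alveolar markers were called lower. The 5 macrophage markers summed to 1192 CPM in LC replicate 1, 466.2 and 397.4 CPM in the other LC tumors and 1144 to 1369 CPM in the IP + LC tumors, with 2 called higher. Of the fibroblast markers 2 were higher and 2 lower, and 0 of 4 tested T cell markers were called. No listed marker was at 0 in all libraries. The part of these cells in the differences of the p53 response and senescence genes was not tested.

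**Figure D4:**
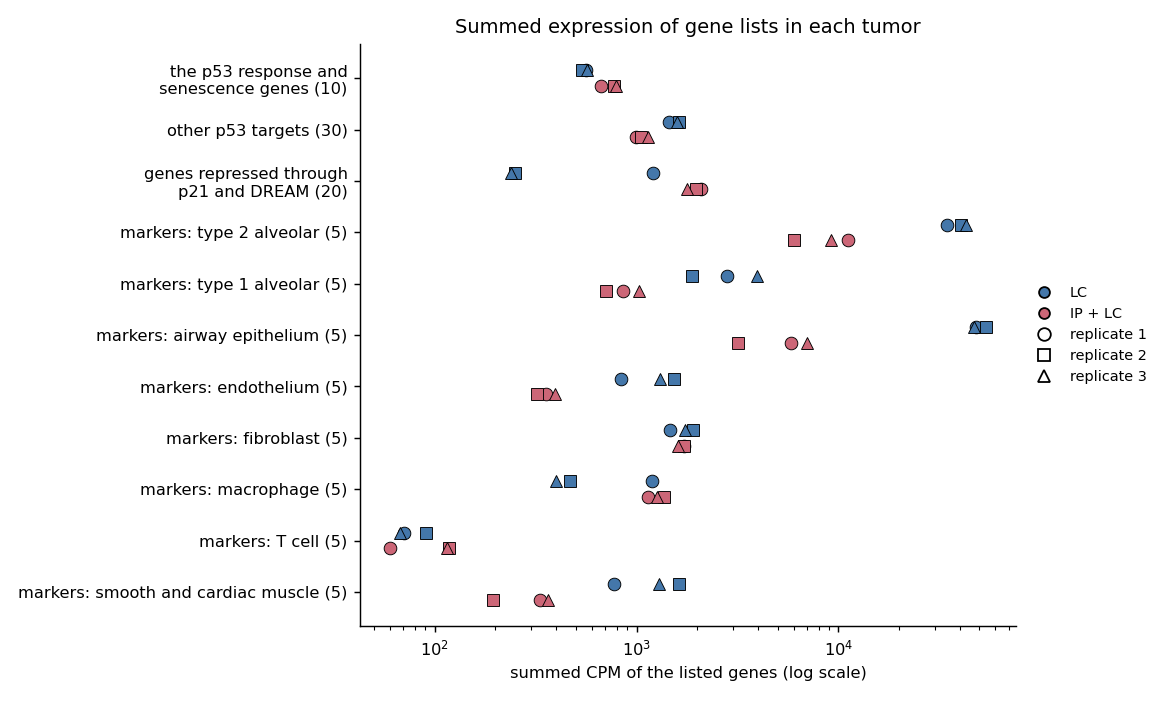
Summed CPM of the listed genes (horizontal axis, log scale) in each LC (blue) and IP + LC tumor (red), with the number of genes in brackets and the replicate as the symbol. The 10 p53 response and senescence genes lie between 539 and 792.9 CPM, the lung markers are lower in the IP + LC tumors, and LC replicate 1 lies between the groups for the genes repressed through p21 and DREAM and within the IP + LC range for macrophages.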

How the data were processed

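RNA of 6 tumors (3 LC, 3 IP + LC) was profiled by bulk RNA barcoding and sequencing from the 3′ end. The authors extracted UMIs of 10 nucleotides with UMI-tools 1.1.1, trimmed the reads with Trim Galore 0.6.7, mapped them with HISAT2 2.2.1 (GRCm38) and counted genes with featureCounts 2.0.1. The authors deposited raw UMI counts of each gene, not normalized. Which annotation release was used, and whether the strand was, is not given in the sources used here.

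Genes were kept by filterByExpr (minimum count 10, minimum total 15), scaled by TMM (factors 0.905 to 1.07) and compared with the quasi-likelihood test of edgeR 4.0.16 in R 4.3.3. Benjamini-Hochberg adjustment ran over 11240 genes, with a limit of 0.1. CPM relate UMIs to the TMM-scaled UMIs in tested genes. Alternatives were other scalings and filters, DESeq2 1.42.0, limma 3.58.1 (voom with sample quality weights), a replicate block, a limit of 0.05 and fits without 1 tumor at a time.

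The 10 genes and the lists were chosen with earlier results of these data known. Named genes were the 10 genes, 26 fixed names and, in each list, up to 3 largest increases and decreases among called genes with a mean of at least 10 UMIs in the higher group. For 1 of the fixed names the result is not reported here. Lists were described by counts and medians, without a set test. Positions and overlaps came from GENCODE M21 (GRCm38), and near-identical transcripts (at least 81 bases, 95% identity) from blastn 2.17.0+. Counting intervals and floors (3 UMIs) cover counting error only.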

Additional observations from a re-analysis of the deposited data

How the results depend on the processing

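Gdf15 kept its direction and its call in 13 of 13 alternatives, with log2 fold changes of 2.43 to 3.38, and Cdkn2b in 11 of 13, with -1.35 to -0.70. Of the single-gene values under the alternatives, 649 kept direction and call, 90 lost the call, 20 gained it and 8 changed sign. Scaling by library size alone moved the median of tested genes by 0.16 on the log2 scale and the calls from 46.1% to 58.3% higher. It gave 5 of the 10 genes higher, 1 CDK gene lower and 0 stress genes lower, and relative to the median the 9 genes moved little. Without a filter, 1 CDK gene was lower, 5 stress genes were higher and 0 lower. DESeq2 called 1 of the 10 genes higher, 1 CDK gene lower and 0 stress genes lower. Sample quality weights gave 5 of the 10 genes higher, 3180 tested genes higher, 2 p53 regulators lower and 6 BCL2 genes higher. With the limit of 0.05, the counts were 1 of the 10 genes, 4 p53 regulators, 9 DREAM genes, 1 BCL2 gene and 1 stress gene higher, and 1 CDK gene and 0 stress genes lower. Leaving out 1 tumor at a time gave, higher and lower, 1 to 5 and 0 to 1 of the 10 genes, 857 to 3126 and 1315 to 3180 of tested genes, 2 to 4 and 6 to 11 other p53 targets, 4 to 8 and 0 to 4 p53 regulators, 3 to 6 and 1 to 3 CDK genes, 7 to 19 and 0 DREAM genes, 0 to 6 and 2 to 3 BCL2 genes, 8 to 17 and 2 to 4 senescence-associated genes, and 1 to 4 and 0 to 1 stress genes. The sign changed for 3 uncalled genes. Glb1 was at -0.028 in DESeq2 and at -0.21 to 0.38 with 1 tumor left out, Mdm4 at -0.12 to 0.21 and Pmaip1 at -0.39 to 0.22. The causes were not tested. The replicate numbers did not pair the tumors (correlations of same-numbered deviations 0.026, -0.12 and 0.112). The replicate block left 1 CDK gene lower in place of 2, gave Gadd45a an adjusted p of 0.121 and Cdkn1a an adjusted p of 0.0631, and moved no other list count by over 1.5 times. Depth limits Cdkn2a, Gdf15 in the LC group and Bbc3.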

Other observations

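The neighbours of Cdkn2a and Cdkn2b on chromosome 4 were looked at after the values of these genes were seen. Mtap (chr4:89137122-89181081, plus strand, GRCm38), a gene of methionine salvage on the other side of Cdkn2a, had 19, 56 and 21 UMIs in the LC and 84, 114 and 80 UMIs in the IP + LC tumors. It was higher in the IP + LC group, at 61.9 ± 4.30 against 31.5 ± 13.1 CPM (log2 fold change 0.97, SE 0.30, adjusted p = 0.0413, edgeR quasi-likelihood test), and each IP + LC tumor lay above the LC tumors. Dmrta1, on the side of Cdkn2b, had 0, 0 and 2 UMIs in each group.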
